A study of Mus musculus with 6 samples.

Results

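The ion channel genes of glomerular endothelial cells (GEC) described here encode potassium channels, TRP channels, CLC chloride channels and exchangers, and a few channels that respond to force or calcium. They were taken by gene symbol, as every gene with a symbol that starts with Kcn, Trpc, Trpm, Trpv or Clcn, with Piezo1, Piezo2, Pkd1, Pkd2, Ano1 and Ano6 beside them where measured. Of 19938 genes with a probeset of a single symbol 125 met the rule, on 132 probesets, and each gene was given by its probeset with the highest mean. Pkd2 was not analysed here. The prefixes also took in auxiliary proteins that form no pore themselves, such as the Kcnab, Kcne, Kcnip and Kcnmb subunits and Kcnrg. A further 5 entries are neither channels nor auxiliary proteins of this kind. They are Trpc4ap, which binds a TRP channel, and the antisense transcripts Kcnd3os, Kcnmb4os1, Kcnmb4os2 and Trpc5os. The probes were not checked for strand, so the signal of an antisense entry may not be distinct from that of its gene.

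The cells came from mice of 7 months that carried Tie2-GFP, a transgene in which the Tie2 promoter drives green fluorescence in endothelium and also in some blood cells. GFP positive cells were sorted from sieved glomeruli. The normal group carried Tie2-GFP with the genotype +/+ and the diabetic group carried Tie2-GFP with the genotype DB/DB, which removes a working leptin receptor and makes the animals obese and diabetic. There were 3 normal and 3 db/db samples, labelled as biological replicates, each on 1 Affymetrix whole-transcript array, so every mean below has n = 3 per group and every error beside a mean is an SD, while the error beside a change is limma's SE. Values are log2 probeset signal. Array medians lay between 7.00 and 7.04. On the first principal component (27.0% of the variance) the array of normal replicate 2 lay far from the other 5. All 10 pan-endothelial markers reached a linear signal of 100, and their summed linear signal ran from 54161 to 55685 in normal and from 55777 to 56981 in db/db. Of 7 measured podocyte markers 5 reached it, with sums of 3353 to 3795 in normal and 3101 to 3249 in db/db. That sum was carried by Clic5 and Cdkn1c (changes of -0.20 and -0.40), while the other 5, Nphs1 and Wt1 among them, had higher db/db means and the median change of those tested was 0.06. Neither sum overlapped between the groups, and the part of other cells in the channel results was not tested.

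In endothelium, potassium channels set the membrane potential, and the more negative the cell interior, the stronger the pull on calcium. TRP and Piezo channels let that calcium in after receptor activation, stretch or shear. CLC proteins mostly work inside the cell, where they carry chloride into endosomes and lysosomes. Calcium entry then feeds nitric oxide synthesis and the spread of hyperpolarization to smooth muscle through gap junctions.

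Of the 125 genes 65 (52.0%) reached 100 on the linear scale (6.64 in log2) in at least 3 of the 6 arrays, the level that the study's methods require, against 64.0% of all 19938 genes. The level was reached in all 6 arrays by 53 genes and in no array by 55. It is a low bar, below the median of every array, and 8.67% of 1027 olfactory receptor genes, which endothelium is not known to use, reached it too. Of the channel genes 49 had a mean above the 95th percentile of those receptors (6.93), and 20 of the 65 had a mean under 7. Just inside the level lay Kcne1l, Kcnk13 and Kcnq3, where the third highest array, which decides, read 6.66, 6.67 and 6.67. Just outside lay Kcnd1 at 6.64, Kcnj9 at 6.59 and Kcnq5 at 6.59. The median of the gene means was 6.63 for the channel genes and 7.25 for all genes. Reaching the level is therefore a statement on signal, and probes of different genes differ in brightness, so the order below is an order of array signal.

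**Figure D1:**
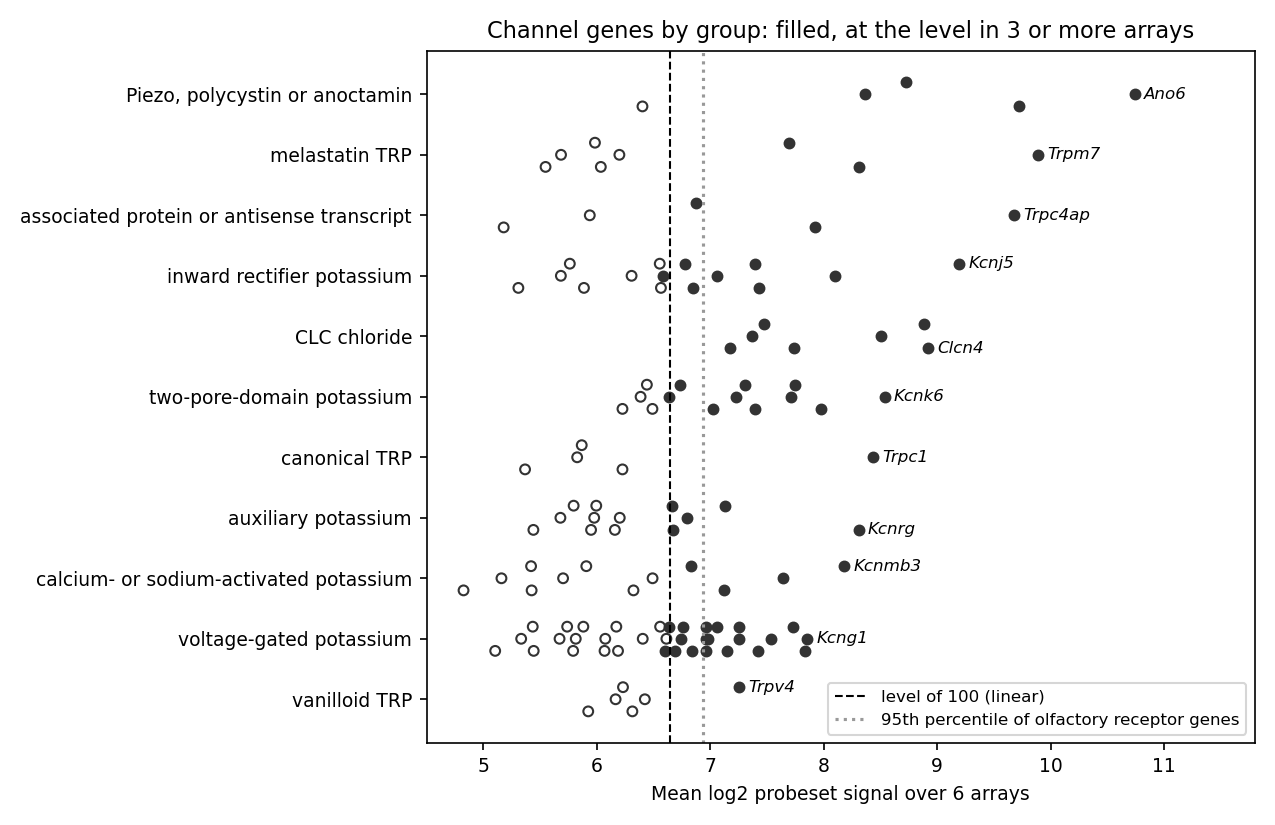
Mean log2 probeset signal over 6 arrays (horizontal axis) of the 125 channel genes (points), in rows by group, filled where a gene reached 100 on the linear scale in at least 3 arrays. The dashed line marks that level (6.64) and the dotted line the 95th percentile of olfactory receptor genes (6.93). All 7 CLC genes lay above both lines, whereas 1 of 5 canonical and 1 of 6 vanilloid TRP channels did.

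The channel gene with the highest signal was Ano6, a calcium-activated scramblase and channel that exposes phosphatidylserine on the cell surface. Its normal arrays read 10.90, 10.62 and 10.61 and its db/db arrays 10.76, 10.67 and 10.92. The groups overlapped, and this signal was above that of 93.6% of genes. Trpm7, a magnesium and calcium channel fused to a kinase, followed at a mean of 9.89 and Piezo2, a channel opened by stretch, at 9.72. Trpc4ap lay at 9.68. Kcnj5, a subunit of G protein-gated inward rectifiers, came next at 9.19 and was the potassium channel with the highest signal. The rest of the highest 12 were Clcn4 (8.92), Clcn3 (8.88), Piezo1 (8.72), Kcnk6 (8.54), Clcn6 (8.51), Trpc1 (8.43) and Pkd1 (8.36). Hence 2 of the 12 were potassium channels. Ano6 alone had a mean above 1000 on the linear scale, 5 genes had one above 500 and 14 above 300.

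**Figure D2:**
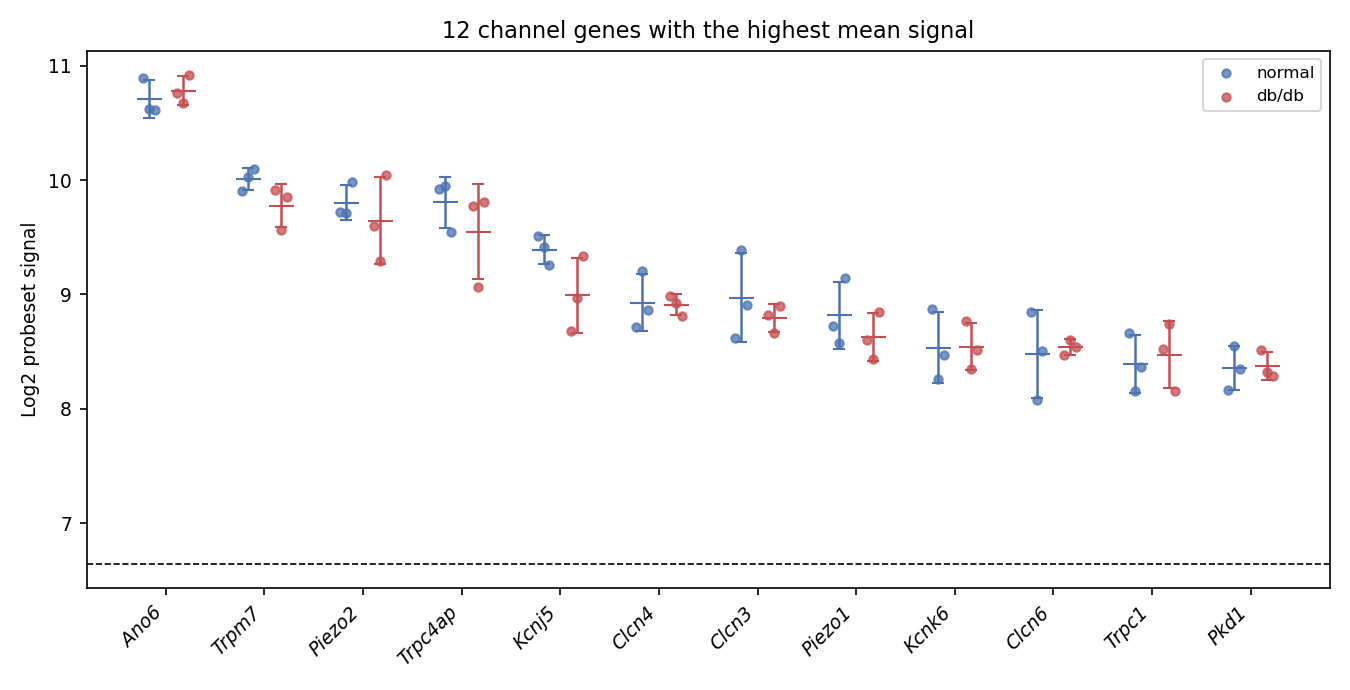
Log2 probeset signal (vertical axis) in each array (points) of the 12 channel genes with the highest mean signal, with each group's mean and SD over 3 arrays (bars). The groups overlapped in all 12, and Ano6 lay between 10.61 and 10.92 in every array.

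The promoters of a few of these genes are shown because CpG-rich promoters are common among broadly expressed genes and the channels differed in this feature. Sequences are RefSeq's (GRCm38.p6), the 250 bases before the most upstream start of each gene, 5′ to 3′, with CG dinucleotides in capitals. They belong to Ano6, the highest signal (chr15:95790593-95790842 on the plus strand), Kcnj5, the highest potassium channel (chr9:32344345-32344594 on the minus strand), Clcn5, the gene with the smallest p between groups (chrX:7319359-7319608 on the minus strand), and Kcnma1, which was at the level in no array (chr14:24004206-24004455 on the minus strand).
Ano6: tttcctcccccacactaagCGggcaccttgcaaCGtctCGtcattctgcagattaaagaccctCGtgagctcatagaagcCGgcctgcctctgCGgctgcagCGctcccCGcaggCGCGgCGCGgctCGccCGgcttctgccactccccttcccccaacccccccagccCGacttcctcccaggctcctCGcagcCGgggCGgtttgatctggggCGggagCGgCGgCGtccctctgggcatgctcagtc
Kcnj5: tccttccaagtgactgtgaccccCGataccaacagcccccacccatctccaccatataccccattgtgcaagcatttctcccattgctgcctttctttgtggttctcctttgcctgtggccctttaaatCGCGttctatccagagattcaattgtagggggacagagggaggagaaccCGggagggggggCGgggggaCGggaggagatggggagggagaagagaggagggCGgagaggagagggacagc
Clcn5: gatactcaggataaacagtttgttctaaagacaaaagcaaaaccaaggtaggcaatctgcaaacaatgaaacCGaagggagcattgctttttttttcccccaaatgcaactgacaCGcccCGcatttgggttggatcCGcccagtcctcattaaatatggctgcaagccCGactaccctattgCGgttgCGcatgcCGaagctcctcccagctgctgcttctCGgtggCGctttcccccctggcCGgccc
Kcnma1: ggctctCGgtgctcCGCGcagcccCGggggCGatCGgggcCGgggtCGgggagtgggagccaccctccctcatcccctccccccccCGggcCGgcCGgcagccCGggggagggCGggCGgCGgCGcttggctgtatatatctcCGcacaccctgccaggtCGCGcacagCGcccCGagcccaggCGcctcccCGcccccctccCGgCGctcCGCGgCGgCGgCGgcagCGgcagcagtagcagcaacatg

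Ano6 held 22 CG dinucleotides, Kcnj5 held 7, Clcn5 held 11 and Kcnma1 held 31, so a gene at the foot of the signal range had the most of these 4. Over the genes with a promoter in the table, the ratio of observed to expected CG was above 0.6 in 23 of 51 genes that reached the level (45.1%), in 10 of 50 that did not (20.0%) and in 34.5% of all 27025 genes. The median ratio was 0.57, 0.38 and 0.38 in the same order. The letters CGGAAG, a core that ETS factors of endothelium can bind, were found on either strand in 4 of the 51 and 2 of the 50, against 13.8% of all promoters of this length. These counts describe the letters of a short window and were not tested.

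Inward rectifiers (Kcnj) hold the resting potential. Of 15 measured genes 8 reached the level, and signal stood on Kcnj5, with Kcnj13 at 8.10 and Kcnj11, the pore of many ATP-sensitive channels, at 7.43. Kcnj3, which pairs with Kcnj5 in the heart, lay at 6.78. Kcnj2, the inward rectifier usually named for endothelium, read 5.47, 5.29 and 5.09 in normal and 5.36, 5.30 and 5.33 in db/db, and no array reached the level. Kcnj8, the pore of the vascular ATP-sensitive channel, lay close to the level in every array, from 6.76 to 6.97.

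Calcium-activated channels turn a rise in calcium into hyperpolarization. Of 12 genes of the calcium- or sodium-activated group, in which the auxiliary Kcnmb subunits were counted, 4 reached the level. Kcnn3, the small-conductance channel of endothelium, had a mean of 7.75 ± 0.25 in normal and 7.53 ± 0.25 in db/db. Kcnn4, the intermediate-conductance channel, had 6.84 ± 0.13 and 6.82 ± 0.04, below the 95th percentile of the olfactory receptors. Kcnma1, the large-conductance channel of smooth muscle, stood at 5.22 ± 0.08 and 5.10 ± 0.10, and its other probeset had a mean of 4.80, whereas Kcnmb3, an accessory subunit of that channel, had 8.17 ± 0.09 and 8.19 ± 0.14.

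Leak channels of the K2P family (Kcnk) pass a steady outward current. Of 14 genes 10 reached the level, led by Kcnk6 (8.54), Kcnk15 (7.98), the stretch-sensitive Kcnk4 (7.75) and the acid-sensitive Kcnk3 (7.71). Kcnk2, the stretch- and lipid-sensitive channel often named for endothelium, had a mean of 6.49 and no array at the level. Voltage-gated channels were the largest group, and 19 of 35 reached the level, with means between 6.60 and 7.85. The highest was Kcng1, a silent subunit that works only with other subunits, at 7.85. Of the next, Kcns3 (7.84) and Kcng2 (7.73) are silent subunits too, followed by Kcnh4 (7.53) and Kcna3 (7.42), a pore-forming channel best known from lymphocytes. Kcnq1 lay at 7.15, whereas Kcna5, a channel of heart and vascular muscle, lay at 6.07 with no array at the level. Of 13 auxiliary genes, which here leave out the Kcnmb subunits, 5 reached the level, led by Kcnrg, a regulator of channel assembly, at 8.31. All of Kcne1, Kcne2, Kcne3 and Kcne4, single-span subunits of voltage-gated channels, stayed between 5.44 and 5.98. Kcnrg was the least reproducible of all, with normal arrays at 8.89, 7.29 and 9.35 and db/db arrays at 8.68, 7.94 and 7.72.

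Of 19 measured TRP channels 5 reached the level. In the canonical group, which opens after receptor activation, Trpc1 reached it and Trpc4, Trpc5, Trpc6 and Trpc7 did not, with Trpc6 between 5.80 and 5.93. Of 6 vanilloid channels Trpv4, an osmotic and shear-sensitive calcium channel of endothelium, reached it, at 7.26. Trpv2 followed at 6.42, below the level in every array, and the epithelial calcium channels Trpv5 and Trpv6 lay at 6.23 and 6.17. Of 8 melastatin channels Trpm7, Trpm3 and Trpm4 reached it, and Trpm4, a sodium channel opened by calcium, had 7.80 ± 0.38 in normal and 7.59 ± 0.22 in db/db.

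The CLC family was measured for 7 genes and all 7 reached the level in every array. Those of endosomes and lysosomes, Clcn3 to Clcn7, ran from 7.48 (Clcn5) to 8.92 (Clcn4). Those of the plasma membrane were lower, Clcn1 of skeletal muscle at 7.37 and the widespread Clcn2 at 7.17. Of the channels of force and their kin, Piezo1, which senses shear in endothelium, read 8.72, 8.58 and 9.15 in normal and 8.60, 8.44 and 8.85 in db/db. Pkd1, the polycystin that polycystic kidney disease disrupts, lay between 8.17 and 8.55. Ano1, a calcium-activated chloride channel, reached the level in 2 of 6 arrays, both normal (6.77 and 6.81), and read 6.08, 6.17 and 6.32 in db/db. With no level filter its change was -0.43 ± 0.17 (unadjusted p = 0.046, adjusted p = 0.914). The other gene below the level with an unadjusted p under 0.05 in that fit was the silent subunit Kcns2, at 5.34 ± 0.07 in normal and 5.53 ± 0.06 in db/db, a change of 0.19 ± 0.07 (adjusted p = 0.914).

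Db/db and normal arrays were set against each other to ask which channel genes differ in this model of diabetic nephropathy. With limma and adjustment over all 20661 probesets tested 0 of the 65 channel genes passed (smallest adjusted p = 0.256), and the background was 0 of all probesets, that is 0.0%. Most channel genes had close to equal signal in the groups. Of the 65, 49 had a mean above the 95th percentile of the olfactory receptors, and for the rest equal signal need not mean equal expression. The median log2 change of the 65 genes was 0.01, as was that of all probesets tested, and 41 of 65 had a change under 0.1 in size. The median size of the change was 0.07 for the channel genes and 0.12 for all probesets tested. The 95% interval of the change was within 0.5 on either side of its estimate for 56 of the 65 genes, and its median half-width was 0.25. For the other 9 genes it was wider, up to a half-width of 1.43 for Kcnrg. In bulk samples a change in signal cannot tell fewer expressing cells from less RNA per cell.

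At an unadjusted p below 0.05, 2 of 65 channel genes were higher in db/db (Clcn5 and Kcnk5, background 3.48%) and 2 were lower (Trpm3 and Kcnh1, background 2.91%), so the shares of 3.08% each were near those of all probesets. Kcnk5 entered the test through the db/db arrays alone, so its place in that count rests on the filter. The methods' t-test gave 3 and 0. In 5 genes each db/db array lay above each normal array (Clcn5, Kcnk5, Kcna7, Kcnd3 and Kcnk7, background 7.01%), and in 3 genes below (Trpm3, Kcnh1 and Trpv4, background 5.31%). Kcnd3 passed the level in the same way as Kcnk5, so neither gene's groups could overlap and the count without these 2 is 3. With 1 array left out in turn, Clcn5 stayed below that p in 6 of 6 fits, Trpm3 in 2 (without normal replicate 1 or db/db replicate 2), Kcnh1 in 2 (without normal replicate 2 or db/db replicate 1) and Kcnk5 in 1 of the 3 fits that tested it (without normal replicate 1). Without normal replicate 2 the count above was 10 of 60 (background 12.7%), and without normal replicate 3 the count below was 13 of 65 (background 11.4%). The count below was 5 without normal replicate 1 and 5 without each db/db replicate (backgrounds between 9.31% and 9.99%).

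By group, 5 of 7 CLC genes had a higher db/db mean, with changes between -0.18 and 0.79 and a median of 0.06. Of the 10 Kcnk genes tested 6 were higher, between -0.05 and 0.64, and of the 8 Kcnj genes 4 were, between -0.40 and 0.25. The 19 voltage-gated genes held 12 with a higher db/db mean and ran from -0.55 (Kcnh1) to 0.16 (Kcna7). The medians of the Kcnk, Kcnj and voltage-gated groups were 0.01, 0.01 and 0.04.

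**Figure D3:**
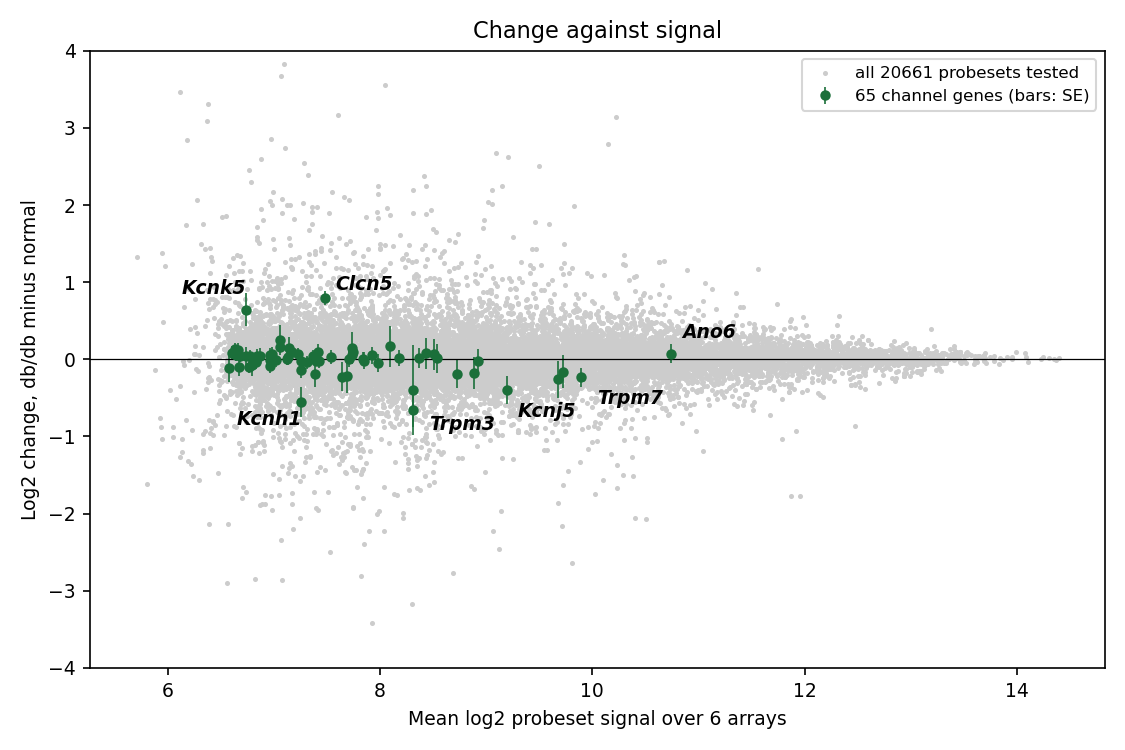
Log2 change, db/db minus normal (vertical axis), against mean log2 signal over 6 arrays (horizontal axis) of the 65 channel genes that reached the level (green, bars are SE) and of all 20661 probesets tested (grey). Clcn5 had the highest change of the channel genes, 0.79, Trpm3 the lowest, -0.66, and none passed the adjusted test.

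Clcn5 encodes a chloride-proton exchanger of early endosomes that proximal tubule cells need to take up protein. It read 7.09, 7.12 and 7.04 in the normal arrays and 8.01, 7.83 and 7.78 in the db/db arrays. Every db/db array was higher than every normal array by more than the range within either group. The log2 change was 0.79 ± 0.09 (limma SE, 95% interval 0.56 to 1.02), or 1.73-fold, with an unadjusted p of 0.000173 and an adjusted p of 0.256. Over the alternatives the change lay between 0.73 and 0.84 and the adjusted p between 0.115 and 0.637.

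Kcnk5, a leak channel that alkaline pH opens and that proximal tubule uses, read 6.52, 6.45 and 6.27 in normal, all below the level, and 7.47, 6.70 and 7.00 in db/db. The difference was 0.64 ± 0.21 (adjusted p = 0.712, 0.545 to 0.894 over the alternatives), and no fold is given because the normal signal was below the level. The other genes with the smallest p among those with a higher db/db mean had small changes, namely Kcna7 (0.16 ± 0.08), Kcnd3 (0.14 ± 0.08), Kcnip3 (0.12 ± 0.09) and Kcnj15 (0.25 ± 0.19). Kcnk7 differed by 0.07 ± 0.08.

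Because Clcn5 and Kcnk5 are known from tubule cells, tubule markers are given beside them. Of 10 proximal tubule markers 5 reached the level, with a summed linear signal of 3068 to 3424 in normal and 2961 to 3302 in db/db arrays, and the defining endocytic receptors Lrp2 and Cubn did not reach it. Gatm and Aqp1 made up most of that sum, with changes of -0.05 and -0.20. All other markers of the list had higher db/db means. Among these, Slc22a6 differed by 0.16 ± 0.09 and Slc5a2 by 0.10 ± 0.11, and the median change of those tested was 0.03. Slc22a6 reached the level through the db/db arrays alone, so its groups could not overlap. Kap had a mean of 5.45 in normal and 6.04 in db/db, with 1 array at the level. Of 10 distal nephron markers 5 reached the level, Umod through the db/db arrays alone. The summed signal of the distal list ran from 875 to 1034 in normal and from 1044 to 1177 in db/db, without overlap. Calb1 of that list had a mean of 5.46 in normal and 6.69 in db/db, at the level in 2 arrays. Slc12a1 (5.35 and 5.32), Scnn1g (5.80 and 5.72) and Cldn8 (5.317 and 5.316) had lower db/db means, all below the level. The remaining distal markers had higher db/db means. The leukocyte sum did not overlap either, at 856 to 878 against 922 to 1182, with 3 of 10 markers at the level and Cd68 at a log2 change of 0.76 ± 0.27. Of the other leukocyte markers Ptprc (means of 6.42 in normal and 6.33 in db/db), Cd79a (5.47 and 5.14) and Cd3e (7.25 and 7.14) had lower db/db means. Higher db/db means were seen for Lyz2 (6.34 and 6.95), Cd52 (5.46 and 5.74) and Coro1a (7.21 and 7.39). The same held for Laptm5 (6.35 and 6.48), Csf1r (6.17 and 6.25) and Itgam (5.66 and 5.67). The distal and leukocyte sums were thus higher in db/db. The proximal tubule sum, carried by Gatm and Aqp1, was not, although the other proximal tubule markers had higher db/db means. The part of such cells in the differences of Clcn5 and Kcnk5 was not tested.

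Trpm3, a heat and steroid-sensitive calcium channel, read 8.17, 8.79 and 8.98 in normal and 7.94, 8.09 and 7.92 in db/db. All db/db arrays were lower, but normal replicate 1 lay close to them. The change was -0.66 ± 0.22 (adjusted p = 0.717, 0.513 to 0.967 over the alternatives) and ran from -0.90 without normal replicate 1 to -0.50 without normal replicate 3. Its unadjusted p was 0.0248 with all arrays and reached 0.072 without normal replicate 2. Kcnh1, a voltage-gated channel of neurons and dividing cells, read 7.49, 7.34 and 7.76 in normal and 7.24, 6.63 and 7.06 in db/db, a change of -0.55 ± 0.19 (adjusted p = 0.752, 0.578 to 0.967 over the alternatives).

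Kcnj5 read 9.51, 9.41 and 9.26 in normal and 8.68, 8.97 and 9.33 in db/db. A single db/db array, replicate 3, lay within the normal range, and the change was -0.40 ± 0.18 (adjusted p = 0.805, interval -0.85 to 0.05). Without 1 array the change of Kcnj5 ran from -0.57 to -0.24. Over all alternative fits its unadjusted p ran from 0.0117 to 0.187, and its adjusted p from 0.681 to 0.981. For Kcnrg, with a change of -0.40, the unadjusted p ran from 0.0321 to 0.969 over those fits. Trpm7 was lower by 0.23 ± 0.12 and Kcnn3 by 0.22 ± 0.18, each with overlap. Trpv4 was lower in each db/db array, at 7.34, 7.29 and 7.36 against 7.03, 7.26 and 7.27, by 0.14 ± 0.10. The 3 melastatin channels at the level all had lower db/db means (-0.66, -0.23 and -0.21), and 1 of them passed the unadjusted threshold.

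**Figure D4:**
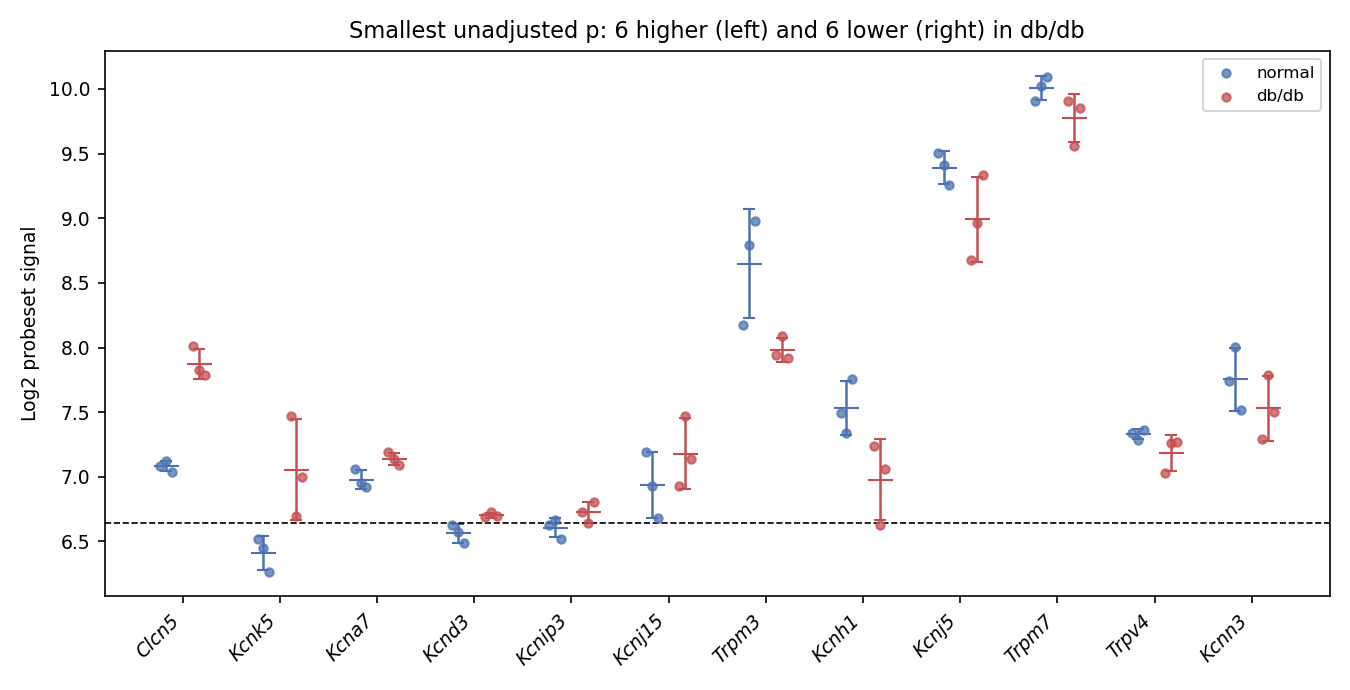
Log2 probeset signal (vertical axis) in each array (points) of the 6 channel genes with the smallest unadjusted p and a higher db/db mean, then of the 6 with a lower one, with each group's mean and SD over 3 arrays (bars) and the level of 100 (dashed). Clcn5 showed the cleanest separation, 7.04 to 7.12 against 7.78 to 8.01, and Kcnj5, Trpm7 and Kcnn3 overlapped.

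For the rest of the highest 12 the intervals show what size of change the arrays would still allow. The change of Ano6 was 0.07 (interval -0.22 to 0.37), that of Piezo1 was -0.19 (-0.65 to 0.28), that of Pkd1 was 0.02 (-0.30 to 0.34) and that of Kcnk6 was 0.01 (-0.47 to 0.49). Piezo2 was read by 3 probesets, each with a lower db/db mean. That with the highest mean had a change of -0.16 ± 0.21 (interval -0.68 to 0.36) and overlapped between groups. The next one had -0.60 ± 0.17 (interval -1.02 to -0.17, unadjusted p = 0.0142, adjusted p = 0.677). Its arrays read 9.50, 9.30 and 9.62 in normal and 8.77, 9.19 and 8.67 in db/db, without overlap. The third had -0.09 ± 0.10 (interval -0.35 to 0.17) and overlapped between groups. The 3 intervals overlapped, and the difference in size between these probesets was not tested. The 3 probesets of Piezo1 had changes of -0.19, -0.05 and 0.20, and the groups overlapped in each case.

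Genes that work with these channels were taken from 4 lists. Of 11 measured genes of store-operated calcium entry and calcium release 9 reached the level, and 0 were past the unadjusted threshold in either direction. The store regulator Saraf had a change of 0.17 ± 0.09, Itpr2 of calcium release one of -0.09 ± 0.10 and the calcium sensor Stim2 one of 0.16 ± 0.18. Over all probesets 3.48% were higher and 2.91% lower at that threshold, and with lists this short a single gene exceeds those shares. Of 10 tested calcium and sodium pumps 1 was higher and 1 lower. Atp1b1, a subunit of the sodium-potassium pump, read 6.55, 6.68 and 6.54 in normal and 7.10, 7.28 and 7.10 in db/db (0.57 ± 0.09, adjusted p = 0.359), and Atp2a3, a calcium pump of the endoplasmic reticulum, had a change of -0.53 ± 0.18 (adjusted p = 0.746).

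Connexins couple cells electrically, and their list also held the pannexin Panx1. Of its 5 tested genes 1 was higher and 0 were lower, where the shares of all probesets were 3.48% and 2.91%. Gja5, the arterial connexin, had 11.06 ± 0.47 in normal and 11.74 ± 0.20 in db/db (0.68 ± 0.26, adjusted p = 0.754), and Gja1 had a change of 0.32 ± 0.15. Of 15 tested partner subunits and regulators 1 was higher and 0 were lower. This was Ostm1, the partner subunit of the lysosomal exchanger Clcn7, which read 8.21, 7.81 and 8.26 in normal and 8.84, 8.38 and 8.82 in db/db (0.59 ± 0.19, adjusted p = 0.702), while Clcn7 itself had a change of 0.15 ± 0.21. Lrrc8c, a subunit of the volume-regulated anion channel, had a high signal in both groups, 12.21 ± 0.12 and 12.43 ± 0.07. The median change of the 4 lists was -0.01, -0.02, 0.22 and 0.05 in the order given, against 0.01 over all probesets, and none of their genes passed the adjusted test.

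**Figure D5:**
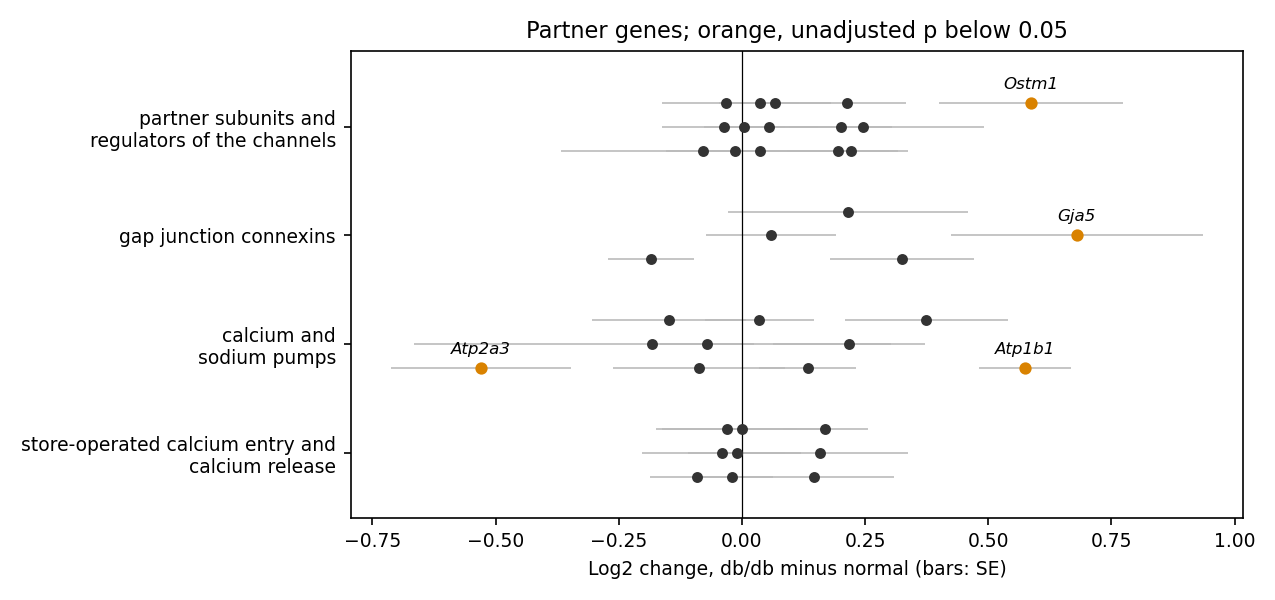
Log2 change, db/db minus normal (horizontal axis, bars are SE), of each tested gene (points) of the 4 partner lists (rows), orange where the unadjusted p was below 0.05. Atp1b1, Gja5 and Ostm1 had changes between 0.57 and 0.68, Atp2a3 had -0.53, and the store-operated entry genes lay within 0.17 of 0.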

How the data were processed

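RNA of sorted GEC was amplified and hybridised to Affymetrix whole-transcript mouse arrays by the authors. The deposited values are log2 probeset signal, normalised by RMA as the study states, although MAS5 is the tool that the submitters' processing notes list. They were not normalised again, and since array distributions were near equal a change shared by most probesets would not show. Some genes of these families are not reported here. Symbols came from the platform annotation, and probesets with several symbols were left out of the gene rule. Probesets at 100 or more (linear) in 3 arrays were tested with limma 3.58.1 in R 4.3.3 (lmFit, eBayes, two-sided) with Benjamini-Hochberg adjustment over 20661 probesets and a threshold of 0.05, after a test on simulated data. Groups came from the labels, and no label pairs the replicates. With 3 arrays a group an exact permutation test could not pass the threshold, so none was run. Precision is limited by how few arrays there are.

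The members and lists were chosen with earlier results of these data known. Genes were named by a rule that took the 12 highest signals, the 6 smallest p in each direction, known endothelial channels, genes next to the level, the highest of each group and 2 per partner list. Kcnk7, the comparison with olfactory receptors, the promoter counts and single genes beyond the rule were chosen after values were seen. Other settings tried were the methods' t-test, weighted arrays, the replicate number as a block, quantile normalisation or centring on medians, the level dropped or raised to 200, a prior that follows intensity, also fitted robustly, probesets of 1 symbol, genes by 1 or by the mean of their probesets, and each array left out. Python 3.11.15 and matplotlib 3.10.9 drew the plots. Of further markers 4 of 9 measured mesangial and smooth muscle genes and both measured erythrocyte genes reached the level, with sums that overlapped between groups.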

Additional observations from a re-analysis of the deposited data

How the results depend on the processing

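No channel gene passed the adjusted threshold under any of the 18 alternatives, where the lowest adjusted p was 0.115 (Clcn5). Over all probesets the count past it was 0, also without any 1 array, but 1 with probesets of 1 gene symbol, 1 with 1 probeset per gene and 2 with the mean of a gene's probesets. Among the channel genes 2 were higher at an unadjusted p below 0.05, 1 at a level of 200 and 1 to 2 without 1 array. Lower were 2 of 65 (background 2.91%), and 1 of 27 at a level of 200 (444 of all 13977 probesets). Array weights gave 1 of 65 (689 of 20661) and the methods' t-test 0 (548 of 20661). With no level filter 3 of 125 were lower (861 of 35557). When probesets were averaged per gene 3 of 65 were lower (453 of all 12673 genes). Without 1 array 0 to 2 were lower, where 470 to 650 of all probesets were. The mean of its probesets gave Piezo2 a change of -0.28 (unadjusted p = 0.032, adjusted p = 0.617). With no level filter 3 of 125 channel genes were higher (background 3.04%). Groups without overlap numbered 5 of 65 higher (background 7.01%) and 10 of 125 with no level filter (background 6.47%). At a level of 200 they numbered 1 of 27 (background 6.93%), and without 1 array 4 to 10 (backgrounds between 11.3% and 13.2%). They numbered 3 of 65 lower (background 5.31%) and 5 of 66 after median centring (background 6.39%). At a level of 200 the count was 1 of 27 (background 6.09%), and without 1 array 4 to 13 (backgrounds between 9.31% and 11.4%). With 2 arrays in a group fewer values must be cleared, and the share of all probesets was higher too. The level was reached by 65 genes, by 27 at 200, and by 58 to 65 without 1 array. Kcnk5 could not be tested without any of the db/db replicates, since it then missed the level.

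With the replicate number as a block the counts were 0 past the adjusted threshold, 2 higher and 2 lower, with a smallest adjusted p among channel genes of 0.570, and no call was altered. The labels do not state that the numbers pair the samples. Deviations of samples with the same number correlated at -0.00385, 0.0353 and -0.0296, and those with different numbers between -0.0468 and 0.0591. With 3 arrays a group these values cannot exclude a pairing.

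Of 528 log2 changes of 31 named genes under the alternatives 500 kept their direction and 28 took the other one, all in 13 genes with changes near 0 or wide spread, and the cause was not tested. Array weights gave 0.047 for Clcn4, -0.10 for Kcnk6, -0.061 for Clcn6, -0.043 for Trpc1, -0.0058 for Kcnmb3 and 0.033 for Kcng1, and median centring gave -0.0069 for Kcnk6. Without 1 array the change ran from -0.36 to 0.020 for Piezo2, -0.12 to 0.12 for Clcn4, -0.35 to 0.033 for Clcn3, -0.13 to 0.18 for Kcnk6, -0.14 to 0.25 for Clcn6, -0.055 to 0.24 for Trpc1 and -0.073 to 0.12 for Pkd1. It ran from -0.0050 to 0.085 for Kcnj8, -0.098 to 0.022 for Kcnn4, -0.35 to 0.0032 for Trpm4, -1.01 to 0.023 for Kcnrg, -0.060 to 0.063 for Kcnmb3 and -0.081 to 0.054 for Kcng1.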
